A study of Homo sapiens with 4 samples.

Results

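The MS4A genes encode membrane proteins that cross the membrane several times, and most of them lie side by side in one cluster on the long arm of chromosome 11. Of the 10 MS4A genes considered, 7 could be measured in MOLM-14 cells treated with DZNep or its solvent, out of 18377 genes measured in all. The 10 are MS4A1, MS4A2, MS4A3, MS4A4A, MS4A5, MS4A6A, MS4A7, MS4A8, MS4A14 and MS4A15, chosen by family name and not by a value of their own. A gene counted as measured when at least 1 probe set carried its symbol and no other, and the probe set with the highest mean over the 4 arrays stood for it. Each of the 7 had 1 such probe set, so no choice was needed among them. MS4A7 and MS4A14 occur only in a probe set that carries several symbols, and MS4A2 has no named probe set here, so none of these 3 is given a value. The family itself was selected on the difference of MS4A6A between treatments, known beforehand to be the largest rise on these arrays, so the differences between treatments within it are given as a description and not as a test.

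MOLM-14 is a long-established cell line from a human acute myeloid leukemia, and its cells carry some RNAs of monocytes and some of myeloid progenitors. Total RNA was hybridised to 4 Affymetrix whole-transcript arrays, 2 from cells given DMSO and 2 from cells given DZNep at 2 µM, after 24 h. DZNep (3-deazaneplanocin A) inhibits S-adenosylhomocysteine hydrolase and thereby methyltransferases, and it is widely used to lower EZH2, the methyltransferase of Polycomb repressive complex 2. The sample titles speak of biological replicates without naming separate cultures. The p-values therefore reflect only how far these 4 samples spread, and that spread may be technical. All groups share the same line and medium, and the series holds no untreated cells.

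MS4A proteins act as parts of, or partners to, receptors and signalling complexes at the cell surface. MS4A1 is CD20, the B cell antigen bound by rituximab, and MS4A2 is the beta chain of the high-affinity IgE receptor of mast cells and basophils. MS4A3, also called HTm4, marks granulocyte-monocyte progenitors, and MS4A4A, MS4A6A and MS4A7 are carried by monocytes and macrophages. Several other members are expressed mainly outside the blood, such as MS4A5 in testis, MS4A8 in epithelia with cilia and MS4A15 in lung.

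The promoters of the 3 measured members with the largest differences between treatments are shown first. Each is the 250 bases before an annotated transcription start in RefSeq (GRCh38.p14), read 5′ to 3′ on the gene's strand. Of the 10 genes, 8 had an entry in that promoter table, and MS4A1 and MS4A15 had none. MS4A6A has 4 starts in it, and the one farthest upstream is printed, at chr11:60184667-60184916 on the minus strand. MS4A4A lies at chr11:60280416-60280665 and MS4A3 at chr11:60056415-60056664, both on the plus strand. Capitals mark matches, on either strand, to GAGGAAG, a core bound by PU.1 and related ETS factors, to TTGCNNAA, a form of the C/EBP site, and to TATAAA, the TATA box.
MS4A6A: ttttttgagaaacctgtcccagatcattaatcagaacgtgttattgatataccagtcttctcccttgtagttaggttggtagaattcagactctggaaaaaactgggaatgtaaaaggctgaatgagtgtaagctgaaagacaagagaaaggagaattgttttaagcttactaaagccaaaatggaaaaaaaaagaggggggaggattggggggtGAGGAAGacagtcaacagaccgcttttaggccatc
MS4A4A: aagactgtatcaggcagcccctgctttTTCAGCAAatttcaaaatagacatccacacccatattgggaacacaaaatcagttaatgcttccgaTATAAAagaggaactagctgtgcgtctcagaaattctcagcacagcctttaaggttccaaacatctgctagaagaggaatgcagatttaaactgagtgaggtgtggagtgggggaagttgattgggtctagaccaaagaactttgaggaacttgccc
MS4A3: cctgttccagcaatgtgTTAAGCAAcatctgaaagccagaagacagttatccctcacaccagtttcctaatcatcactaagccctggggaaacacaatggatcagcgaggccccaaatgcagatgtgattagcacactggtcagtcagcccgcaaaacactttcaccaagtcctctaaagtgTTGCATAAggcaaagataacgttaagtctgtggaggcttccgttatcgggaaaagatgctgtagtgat

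The printed MS4A6A window held 1 GAGGAAG match, 35 bases before the start, and no match to the other motifs. The windows of the other 3 MS4A6A starts held no GAGGAAG: that at chr11:60183332 held TATAAA matches at 67 and 65 bases, which overlap, that at chr11:60183084 held TTGCNNAA at 219 bases, and that at chr11:60184448 held none of the motifs. Which start these cells use was not measured. In the MS4A3 window there were 2 matches to TTGCNNAA, beginning 233 and 68 bases before the start. MS4A4A had 1 TTGCNNAA match at 223 bases and 1 TATAAA match at 157 bases. Among all 35116 promoter windows cut to the same length, 11.2% held GAGGAAG, 9.05% held TTGCNNAA and 10.7% held TATAAA, so each of these matches is common. The matches are letters in a window and say nothing about whether a factor binds there.

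MS4A6A was higher and MS4A3 lower with DZNep, and the next largest difference among the measured members was 0.35 on the log2 scale. MS4A6A, a surface protein of monocytes and macrophages, had log2 intensities of 8.33 and 8.49 with DMSO and of 10.98 and 10.95 with DZNep. Both DZNep values lay above both DMSO values by at least 2.46. The group means were 8.41 ± 0.11 and 10.96 ± 0.02 (SD, n = 2 arrays each), a difference of 2.55 with a standard error of 0.10, or 5.86-fold higher with DZNep. None of the 18377 genes had a larger positive difference.

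MS4A3, the progenitor gene of the family, showed the opposite order. Its log2 intensities were 9.09 and 8.96 with DMSO and 8.02 and 7.96 with DZNep, so both DZNep arrays were lower by at least 0.94. The means were 9.02 ± 0.09 and 7.99 ± 0.04 (SD, n = 2 arrays each), a difference of −1.03 with a standard error of 0.10, or 2.05-fold lower with DZNep. Among all genes, 107 had a more negative difference.

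Measured against each other within an array, the shift between these members is free of any constant scaling of an array. The log2 intensity of MS4A6A minus that of MS4A3 was −0.76 and −0.47 with DMSO and 2.96 and 2.99 with DZNep. That is a change of 3.58, and the 4 pairs of a DZNep with a DMSO array gave changes from 3.43 to 3.74. Against the other 5 measured members the same change ran from 2.20 for MS4A4A to 2.59 for MS4A8. Since the family was selected on the rise of MS4A6A, the largest of all genes, a change against every other member was fixed in advance. These changes, largest against MS4A3, are a description and no test.

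**Figure D1:**
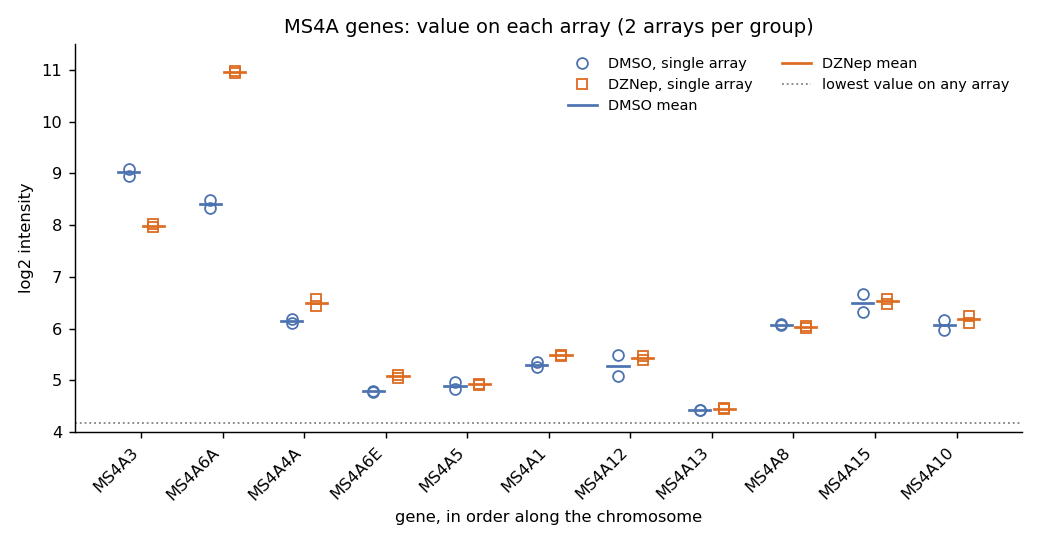
Log2 intensity of the 11 measured MS4A genes on each array, in their order along the chromosome; circles are single DMSO arrays, squares single DZNep arrays, short lines the mean of 2 arrays and the dotted line the lowest value on any array. MS4A6A sits near 10.96 with DZNep against 8.41 with DMSO, MS4A3 falls from 9.02 to 7.99, and the other genes stay below 7.

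MS4A4A, a macrophage surface protein that associates with the beta-glucan receptor CLEC7A (Dectin-1), came next. It had 6.11 and 6.19 with DMSO and 6.44 and 6.57 with DZNep. The arrays did not overlap, and the means of 6.15 ± 0.06 and 6.50 ± 0.09 (SD, n = 2 arrays each) differed by 0.35 (standard error 0.10, 1.28-fold). This is small beside MS4A6A, from which MS4A4E separates it in the cluster: 12.2% of all genes differed by as much in either direction.

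MS4A1 was at 5.35 and 5.26 with DMSO and at 5.49 and 5.48 with DZNep, a difference of 0.18 (standard error 0.09). Its arrays did not overlap, but its values were among the lowest 17.2% of all probe sets on every array. The deposited table has no detection calls, and a signal this dim may be background.

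The remaining 3 members differed by 0.04 or less in size. MS4A5, the testis member, had 4.83 and 4.96 with DMSO and 4.93 and 4.92 with DZNep, within the lowest 9.54% of probe sets on every array. MS4A8 had 6.06 and 6.10 against 6.02 and 6.06. MS4A15 had 6.31 and 6.68 against 6.48 and 6.57, the widest spread between DMSO arrays of any member. The DZNep arrays overlapped the DMSO arrays for MS4A5 and MS4A15, whose differences were 0.03 each. Without DMSO replicate 1 these were −0.037 and −0.15, and without DMSO replicate 2 they were 0.097 and 0.21, so the sign of both depended on 1 array. MS4A8 differed by −0.04, with −0.059 to −0.021 when 1 array was left out, and its arrays just failed to overlap.

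Counted over the family, 1 of the 7 measured members was higher and 1 was lower at a limma adjusted p of 0.05, where adjustment ran over all genes tested. These are MS4A6A and MS4A3. Over all genes 3.62% were higher and 6.68% lower by the same rule, and nothing is read from the members' count because the family was chosen with this comparison known. Both DZNep arrays lay above both DMSO arrays for 3 members and below for 2, against 25.9% and 23.9% of all genes, 49.7% together. The median difference over the 7 was 0.03, beside 0.02 over all genes.

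The family holds further genes that were not among the 10. MS4A6E, a close relative of MS4A6A, had 4.80 and 4.78 with DMSO and 5.11 and 5.05 with DZNep, a difference of 0.29 that missed the threshold (limma adjusted p = 0.0894). It passed in 3 alternatives, with an intensity trend (limma adjusted p = 0.0217, robust 0.023) and with 16 subtracted before log2 (a difference of 0.61, limma adjusted p = 0.0183). Because the MS4A6 genes are alike in sequence, and its intensity was within the lowest 11.3% of probe sets on every array, this value is uncertain. Whether the MS4A6E probe set also reads MS4A6A was not tested. MS4A10, MS4A12, a protein of the colon, and MS4A13 differed by 0.11, 0.15 and 0.02, none of them past the threshold. On every array MS4A13 was within the lowest 3.27% of probe sets and MS4A12 within the lowest 17.5%, so both signals may be background. Without DMSO replicate 1 the value was 0.012 for MS4A10 and −0.050 for MS4A12, and without DMSO replicate 2 it was 0.21 for MS4A10. MS4A4E, MS4A18 and MS4A19P have no named probe set here.

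TMEM176A and TMEM176B, distant relatives of the MS4A proteins encoded on another chromosome, differed from each other in their values. TMEM176A rose from 7.03 and 7.24 to 7.45 and 7.69, a difference of 0.43 (standard error 0.12, limma adjusted p = 0.047). The call ended without DMSO replicate 1, where the value was 0.33, and without DZNep replicate 2, where it was 0.32, and also under cyclic loess normalization or with 16 subtracted from every intensity before log2. TMEM176B had 7.44 and 7.62 with DMSO and 7.33 and 7.68 with DZNep, so its groups overlapped, with a difference of −0.02 that was 0.07 without DMSO replicate 2 and 0.16 without DZNep replicate 1. Whether the pair differs was not tested.

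Genes next to the cluster differed by less than MS4A6A and MS4A3 did. In RefSeq gene order MS4A3 stands at one end of the family, next to OOSP2, an oocyte-secreted protein, and MS4A2 lies between it and MS4A6A. Of 21 neighbours, namely the 10 nearest measured protein-coding genes on each side and LINC00301 inside the cluster, 1 rose and 1 fell. Their median difference was 0.01, and 11 of them had overlapping arrays. Of all genes 3.62% rose and 6.68% fell (limma), and 9236 of 18377 had overlapping arrays. The neighbours' counts are near these shares, and nothing is read from them. CD6, a lymphocyte receptor, rose from 7.09 and 7.34 to 7.80 and 7.59 (difference 0.48, limma adjusted p = 0.0346). OSBP, an oxysterol-binding lipid carrier, fell from 9.55 and 9.34 to 8.88 and 9.01 (difference −0.50, limma adjusted p = 0.0192). Both calls ended without DMSO replicate 1 or DZNep replicate 1, and with 16 subtracted before log2. OOSP2 itself differed by 0.16 and MS4A10's outer neighbour CCDC86, a nucleolar protein, by −0.11.

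**Figure D2:**
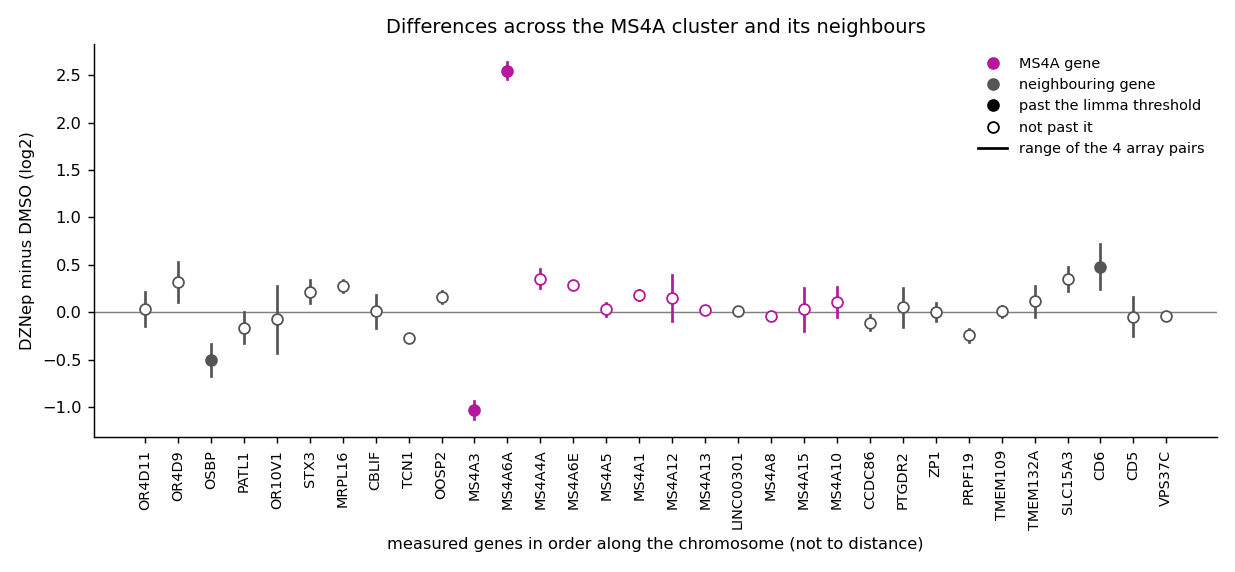
Difference between DZNep and DMSO means (log2) for each measured gene in chromosome order, with vertical lines for the range over the 4 array pairs; filled points passed the limma threshold. MS4A6A at 2.55 and MS4A3 at −1.03 stand away from the 21 neighbours, which lie between −0.50 and 0.48.

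Other monocyte and macrophage genes moved the same way as MS4A6A in part. Of 28 listed, 26 were measured, 8 rose and none fell (limma), with a median difference of 0.18. By the same rule 3.62% of all genes rose and 6.68% fell, with a median of 0.02. MPEG1, the macrophage pore-forming protein, went from 8.08 and 8.32 to 10.07 and 10.00, a rise of 1.83 (limma adjusted p = 4.47e-05). CD86, a costimulatory ligand for T cells, rose by 1.45 and S100A8, a calcium-binding protein of myeloid cells, by 1.24. The list did not move as one, and 18 of the 26 were not called. Among these, VSIG4, C1QA, C1QB, C1QC and FOLR2, which mark tissue macrophages, differed by −0.10 to 0.05, and CD68 by −0.38. The monocyte genes CD14, S100A9, FCN1 and VCAN differed by 0.33, 0.20, 0.09 and 0.09, also without a call. ITGAM and FCGR3A, not called either, differed by −0.22 and −0.20. All these genes were looked up after the values were seen. Without DZNep replicate 1 the number that rose was 5.

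Genes of myeloid progenitors and primary granules moved both ways around MS4A3. Of 19 measured, 5 fell and 2 rose (limma), with a median difference of −0.05. By the same rule 6.68% of all genes fell and 3.62% rose, with a median of 0.02. BPI, a granule protein that kills bacteria, fell from 8.11 and 7.85 to 6.22 and 6.50, a change of −1.62 (limma adjusted p = 0.000166). FLT3, the receptor kinase of early progenitors, fell by 0.94 on the log2 scale, and KIT, another progenitor receptor, rose by 0.85. The others, named after their values were seen, were CD38 at −0.84, CTSG at −0.61 and PRTN3 at −0.58, which fell, and MYB at 0.35, which rose. The call of CTSG ended without DMSO replicate 1, and that of MYB without DMSO replicate 1 or either DZNep array, which left 1 riser in the list. MPO, ELANE and AZU1, granule enzymes of the same stage named after their values were seen, differed by −0.15, −0.05 and −0.04. In bulk RNA, fewer cells of a type and less RNA per cell cannot be told apart.

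Markers of other blood cells were checked because MS4A1 and MS4A2 belong to B cells and to mast cells and basophils. Of 12 measured B cell genes none passed the limma test in either direction, against 10.3% of all genes. An unadjusted limma p under 0.05 was found for 1 of the 12, against 4076 of all 18377 genes. FCER2, the low-affinity IgE receptor, had the largest difference of the 12, 0.35 (limma adjusted p = 0.153). Its value ran from 0.20 without DZNep replicate 2 to 0.51 without DZNep replicate 1, where it passed (limma adjusted p = 0.045). The summed intensity of the B cell list was 1780 and 1832 with DMSO and 1884 and 1946 with DZNep. Bright genes weigh most in such a sum, here FCER2, with means of 8.65 with DMSO and 9.01 with DZNep. No marker on this array reads 0, and the part of other cells in the dim MS4A1 signal was not tested.

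Of 12 mast cell and basophil genes, 2 rose and none fell, against 3.62% and 6.68% of all genes (limma). SIGLEC6, a sialic acid-binding receptor, rose from 7.68 and 7.72 to 8.66 and 8.84 (difference 1.05, limma adjusted p = 0.000362), and GATA2, a transcription factor of progenitors and mast cells, rose by 0.67. The defining genes CPA3, HDC and FCER1A differed by 0.01, 0.03 and 0.01. The summed intensity of the list was 1631 and 1705 with DMSO and 1985 and 2087 with DZNep. This sum includes SIGLEC6 and GATA2, the genes that rose, and is no measure of the list as a whole. Among 12 T cell, NK cell and red cell genes none passed in either direction (limma), against 10.3% of all genes. An unadjusted limma p under 0.05 was found for 1 of the 12, against 4076 of all 18377 genes. GNLY, a cytotoxic granule protein, had the largest difference of the 12, 0.42 (limma adjusted p = 0.0704). GNLY had 0.24 when DMSO replicate 1 was left out and 0.60 when DMSO replicate 2 was, and passed in the latter (limma adjusted p = 0.0116). The summed intensity of that list was 1899 and 1989 with DMSO and 1794 and 1891 with DZNep. Its brightest gene was NKG7, with means of 9.95 with DMSO and 9.74 with DZNep, which weighs most in the sum.

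Proteins known to bind or signal with MS4A proteins were also compared. Of 15, all measured, 3 fell and 3 rose (limma), with a median of 0.01. Among all genes 6.68% fell and 3.62% rose by that rule, with a median of 0.02. FYN, a Src-family kinase, fell from 10.12 and 9.77 to 8.68 and 8.84, a difference of −1.19 (limma adjusted p = 0.000639). CDKN3, the phosphatase bound by MS4A3, fell from 7.74 and 7.92 to 7.25 and 7.14, a difference of −0.63 (limma adjusted p = 0.00508). BTK, a kinase downstream of B cell and Fc receptors, fell by 0.64 on the log2 scale.

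The 3 that rose were named after their values were seen. FCER1G, the Fc receptor gamma chain that pairs with MS4A2, rose by 0.54, the tetraspanin CD53 by 0.46 and the Src-family kinase LYN by 0.39. None of the 3 passed without DZNep replicate 2, FCER1G was the 1 that passed without DZNep replicate 1, and CD53 the 1 that passed without DMSO replicate 2. CLEC7A and TREM2, partners of MS4A4A, differed by 0.00 each, and the alpha chain FCER1A by 0.01. CDK2, a target of CDKN3, differed by −0.18 (limma adjusted p = 0.306).

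**Figure D3:**
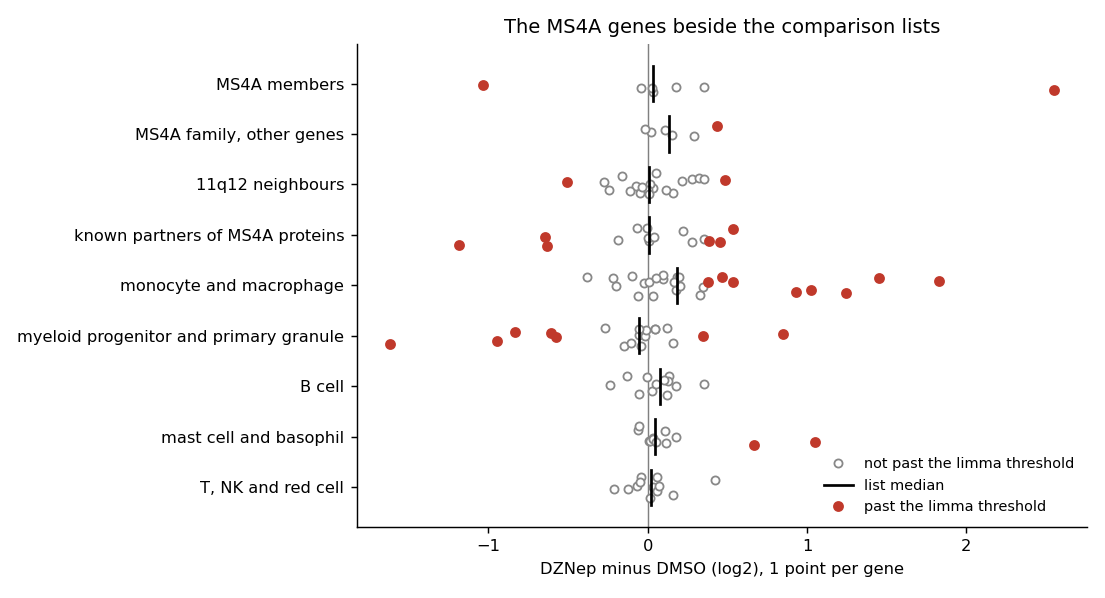
Difference between DZNep and DMSO (log2) for every measured gene of each list, 1 point per gene, with a black bar at the list median; red points passed the limma threshold. MS4A6A at 2.55 is the point farthest right, and the monocyte list has 8 red points, all on the right.

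The genes whose values over the 4 arrays were most like those of MS4A6A were found by the Euclidean distance between mean-centred log2 values. They were ADAMTS1, a secreted protease, at a distance of 0.31, TXNIP, an inhibitor of thioredoxin, at 0.32, ADTRP, a membrane hydrolase, at 0.34, CCNA1, a cyclin, at 0.49 and the cytokine TNF at 0.55. Their differences between treatments were 2.39, 2.29, 2.22, 2.06 and 2.02, necessarily smaller than the 2.55 of MS4A6A, the largest rise of all genes. For MS4A3 the nearest were XPOT, an exporter of tRNA from the nucleus, at 0.03, HSPA4L, a chaperone, at 0.07 and PSPH, the last enzyme of serine synthesis, at 0.08. These 3 fell by 1.05, 1.01 and 1.10 on the log2 scale. With 4 arrays the measure reflects mostly the difference between treatments.

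**Figure D4:**
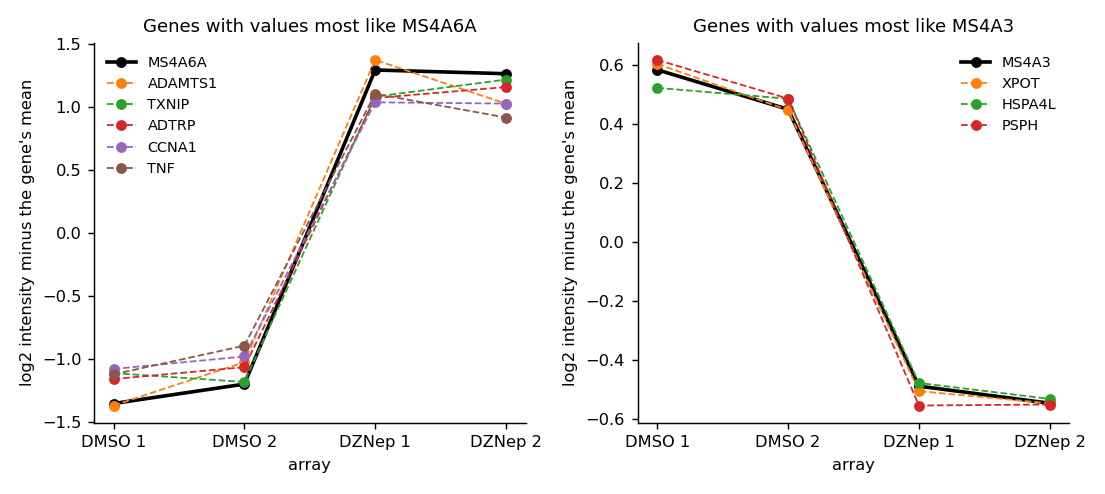
Log2 intensity minus each gene's own mean on the 4 arrays, for MS4A6A with its 5 nearest genes (left) and MS4A3 with its 3 nearest (right); lines only join the points of a gene. Both DZNep points of each gene lie above its DMSO points on the left and below them on the right.

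Across the series, the median of all log2 values on an array was between 6.99 and 7.07. The log2 difference between arrays of a group had an SD over genes of 0.20 for DMSO and 0.14 for DZNep, and precision is limited throughout by having 4 arrays. The RNA of EZH2, the protein DZNep is used to lower, fell by 0.76 on the log2 scale (limma adjusted p = 0.0016). These arrays do not measure the protein. In all, 665 genes were higher and 1227 lower, 10.3% of those tested. The monocytic genes LYZ, at 12.24 with DMSO, and CD14, at 6.71, are both on the array, while CD33 has no named probe set here. CD14 lies below the array medians. With DMSO the monocyte list ran from 4.64 to 12.24, and the progenitor and granule list from 5.05 to 11.87. On the latter list FLT3 was at 11.87 and PRTN3 at 11.49 with DMSO, while CD34 was at 5.90 and KIT at 6.10.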

How the data were processed

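The authors' deposited table gives, for each array, an RMA intensity of every probe set, unlogged. RMA is named in the submitters' processing notes, and its version is not given in the sources used. Lowest intensities were between 18.1 and 18.5 on every array, so differences of dim genes may be too small. The log2 of each deposited intensity was taken, with no pseudocount, floor or further normalization. Of 28869 probe sets, 19310 have 1 symbol in the platform annotation, 1752 have several and 7807 are not listed. The code was first run on simulated data drawn from limma's own variance model, which does not check the calls made on these arrays. The test was limma's moderated test (version 3.58.1, R 4.3.3, group as the only term, two-sided, Benjamini-Hochberg over 18377 genes, threshold 0.05). The printed standard errors come from this fit, in which each gene's variance is drawn toward that of all genes. They therefore differ from what the SDs beside them would give. An exact permutation test of 2 arrays against 2 cannot go below 0.333. No dim gene was removed.

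Members, lists and named genes were chosen with earlier results of these data known. Named genes are the measured members and relatives, up to 3 called genes per list with the largest difference (or the largest where none was called), the genes nearest to MS4A6A and MS4A3, and EZH2. Alternatives were the replicate number as a block, other normalizations, filters on dim genes, variance models, array weights, the mean over probe sets, 16 subtracted before log2, and leaving out each array. A promoter match was counted on both strands of the 250 bases before a start.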

Additional observations from a re-analysis of the deposited data

How the results depend on the processing

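The differences of MS4A6A (2.47 to 2.63) and MS4A3 (−1.10 to −0.97) kept their sign and their call in all 16 alternatives, while the other 5 measured members were called in none, except MS4A4A without DMSO replicate 2 and with a crossed replicate block. Removing the dimmest 25% or 50% of genes leaves 3 and 2 members, so these filters say nothing of the rest. Same-numbered arrays tended only weakly to deviate in opposite directions (correlation over genes −0.22). With the replicate number as a block, 754 genes were higher and 1353 lower, and the lists had 1 monocyte gene lower, 1 progenitor gene higher and 1 T, NK and red cell gene higher. The crossed replicate block, added after seeing the data, gave 1034 genes higher, 2 members higher, 1 monocyte gene lower, 1 B cell gene higher, 1 T, NK and red cell gene higher and 2 neighbours higher.

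Quantile normalization gave 3 neighbours higher and 2 lower. Under cyclic loess 0 other family genes were higher. Without the dimmest 25% there were 1 T, NK and red cell gene and 2 neighbours higher. Without the dimmest 50% there were 0 other family genes, 1 progenitor gene and 2 neighbours higher and 1 monocyte gene lower. An intensity trend, robust or not, gave 2 other family genes, 5 partners and 2 neighbours higher and 1 monocyte gene lower. Array weights gave 1 T, NK and red cell gene higher. With 16 subtracted, 444 genes were higher and 830 lower, with 1 progenitor gene and 0 neighbours higher and 0 neighbours lower; LYN, CTSG and MYB also lost their calls there, and MYB with the replicate block. The cause of these moves was not tested, beyond the smaller number of genes left by a filter.

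Leaving out 1 array gave 336 to 776 genes higher and 734 to 1662 lower (336 without DZNep replicate 2, 734 without DZNep replicate 1), 1 to 2 members and 0 to 1 other family genes higher, 5 to 9 monocyte genes higher and 0 to 1 lower, 1 to 2 progenitor genes higher, 0 to 1 B cell and 0 to 1 T, NK and red cell genes higher, 0 to 3 partners higher, and 0 to 2 neighbours higher and 0 to 1 lower. A lone array was assumed to vary like the other group. MS4A12 ran from −0.050 (without DMSO replicate 1) to 0.35, and TMEM176B from −0.19 to 0.16, with 0.07 without DMSO replicate 2 and 0.16 without DZNep replicate 1. MS4A5 ran from −0.037 to 0.097, MS4A15 from −0.15 to 0.21 (−0.016 under cyclic loess) and MS4A10 from 0.012 to 0.21. Over all named genes and alternatives, calls were lost 25 times, in 8 genes, and gained 12 times, in MS4A4A, MS4A6E, FCER2 and GNLY. Dim signal limits MS4A13, MS4A5 and MS4A6E most, and MS4A1 and MS4A12 after them.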

Other observations

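The probe set that carries the symbols of both MS4A7 and MS4A14 cannot be assigned to either gene. It read 8.51 and 8.40 with DMSO and 8.62 and 8.53 with DZNep, a difference of 0.12 on the log2 scale.

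MPEG1, which had the largest rise in the monocyte list, lies on the same side of the cluster as MS4A3, beyond the 10 neighbours compared, with 15 measured protein-coding genes between it and MS4A3. This position was looked up after its value was seen.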
